A study of Mus musculus with 6 samples.

Results

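The heat shock proteins, their J-protein partners, the cytosolic chaperonin, the BAG nucleotide exchange factors and the transcription factor HSF1 were compared between N2a cells with reduced NPM1 levels and control cells. Genes were taken by symbol: those starting with Hsp, the DNAJA, DNAJB and DNAJC genes, the chaperonin subunits *Tcp1* and *Cct2* to *Cct8*, *Bag1* to *Bag6*, and *Hsf1*. Pseudogene entries and 5 chaperones of the endoplasmic reticulum (ER), namely *Hspa5*, *Hsp90b1*, *Dnajb9*, *Dnajb11* and *Dnajc3*, were not taken. This gave 85 genes of 26656 in the table. The choice by symbol is wider than the cytosol. It takes in mitochondrial proteins (*Hspa9*, *Hspd1*, *Hspe1*, *Dnaja3*, *Dnajc11*, *Dnajc15* and *Dnajc19*) and ER proteins, *Hspa13*, *Dnajb12*, *Dnajc1* and *Dnajc10* among them. It also takes in the matrix proteoglycan perlecan (*Hspg2*) and *Hspb11*, which encodes the intraflagellar transport protein IFT25.

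N2a is a mouse neuroblastoma cell line, here of wild-type (WT) genotype in every library. Cells had been transfected with a plasmid for an shRNA against *Npm1* (NPM1 KD) or for a control shRNA (CTR), and RNA was collected after 72 h, at 3 days in vitro. Puromycin (9.3 µg/ml) was used to select NPM1 KD cells, and selection of CTR cells is not stated for these libraries. For ChIP-qPCR the study selected cells with the control plasmid as well. There are 3 long-read nanopore libraries per condition, all from 1 cell line and 1 shRNA against *Npm1*, and the sources used here give both 3 and 2 biological replicates per condition.

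Expression is given as regularized log (rlog) values, which are on the log2 scale and normalized for library size. They were deposited as whole numbers wherever they reach 1 in size. The unrounded rlog values of a gene with 1 value in all 6 libraries can therefore differ by any amount below 1. A step of 1 stands for an unrounded rlog difference anywhere between 0 and 2. These limits are on rlog values, not on reads. *Dnajb5*, at 3 in all 6 libraries, had 11, 15 and 9 reads in CTR and 2, 4 and 6 in NPM1 KD. Its ratio of reads per depth, NPM1 KD over CTR, was 0.487. Values are not normalized for transcript length and are compared only within a gene. In these bulk libraries, fewer cells expressing a gene and less RNA per cell cannot be told apart.

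*Npm1* (ENSMUSG00000057113) was at 10 in each CTR library and at 8 in each NPM1 KD library, a difference of −2 (SE 0.33, adjusted p = 3.23e-06 from limma, n = 3 per group). The sum of the mean normalized counts was 841220 over all genes, and every CTR library (size factors, which are relative depths, of 1.11 to 1.30) was deeper than every NPM1 KD library (0.784 to 0.961). Of 14 neuroblastoma markers, 6 were tested. The neurofilament genes *Nefl* and *Nefm* had no read, while the transcription factor *Hand2* (7 to 8) was present in every library. The granins *Chga* (7, 7 and 7 in CTR, 5, 6 and 6 in NPM1 KD, adjusted p = 0.026 from limma) and *Chgb* (8, 8 and 7 in CTR, 6 in each NPM1 KD library, adjusted p = 0.0011 from limma) fell, and the summed level of the 14 markers, as 2 to the power of the rlog value, was 1329 to 1459 in CTR and 785 to 849 in NPM1 KD. None of 15 markers of fibroblasts, leukocytes, glia and endothelium reached the level for testing, and 8 of them, *Col1a2*, *Ptprc*, *Sox10* and *Cdh5* included, had no read. The part of the lower neuroblastoma markers and of the depth in the results that follow was not tested.

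Chaperones bind unfolded proteins and help them to fold. HSP70 proteins hold short unfolded stretches in a cycle driven by ATP, J-proteins deliver the substrate and start ATP hydrolysis, and BAG and HSP110 proteins release the nucleotide. HSP90 acts later on partly folded clients such as kinases and steroid receptors, and the ring-shaped chaperonin TRiC folds actin and tubulin. Under heat or proteotoxic stress HSF1 is released from chaperones and binds heat shock elements, inverted repeats of GAA units, and the stress-inducible HSP70 genes are among its best known targets.

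Of 68 genes of the set with a promoter window in the RefSeq table (GRCm38.p6, 300 bases around each annotated start), 16 (23.5%) held an inverted pair GAANNTTC and 4 (5.88%) a run of at least 3 alternating units (GAANNTTCNNGAA or TTCNNGAANNTTC). Both were searched on both strands, and the longer form always holds the pair. Among all 27025 genes with a window the shares were 9.04% and 0.662%. The other 17 genes of the set, including *Hspa8*, *Hsp90aa1*, *Hsp90ab1* and *Hsf1*, had no window in the table. The 4 genes with the longer run, and 2 genes known for strong heat induction with the pair, are shown because they are where an HSF1 response would be looked for. Each line is in the gene's own direction, with the element in capitals.
*Hspd1* (chr1:55088053-55088082, minus strand): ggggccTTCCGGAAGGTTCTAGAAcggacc
*Hspe1* (chr1:55088053-55088082, plus strand): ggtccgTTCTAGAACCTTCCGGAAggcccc
*Hsph1* (chr5:149636287-149636316, minus strand): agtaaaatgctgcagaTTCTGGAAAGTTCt
*Dnajb6* (chr5:29735844-29735873, plus strand): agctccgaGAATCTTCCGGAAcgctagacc
*Hspa1b* (chr17:34959324-34959353, minus strand): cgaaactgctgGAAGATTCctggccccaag
*Hspb1* (chr5:135887791-135887820, plus strand): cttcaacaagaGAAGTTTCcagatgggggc
*Hspd1* and *Hspe1*, the 2 subunits of the mitochondrial chaperonin, lie head to head and share 1 element. The element of *Hsph1* begins 36 bases past the annotated start, those of the other 5 genes lie before it. *Hspa1a* has the same stretch as *Hspa1b* at chr17:34972242-34972271. These are matches of letters, and binding of HSF1 was not measured.

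Of the 85 genes, 45 passed the filter for testing, an rlog mean over the 6 libraries of log2(10) or more. A further 31 had at least 1 read but stayed below it, and 9 had no read in any library. Genes without a read were *Hspa1a*, *Hspa1l*, *Hspb3*, *Hspb7*, *Dnajb3*, *Dnajb7*, *Dnajb8*, *Dnajc5b* and *Dnajc5g*.

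Of the constitutive and inducible chaperones of the cytosol, *Hspa8*, *Hsp90ab1*, *Dnaja1* and *Dnajb1* had the same rounded value in all 6 libraries, while *Hsp90aa1* was 1 higher in NPM1 KD replicate 1, *Cct4* 1 lower in NPM1 KD replicate 2, and *Hspa4* varied within both groups. *Hsph1* and *Cct3* were higher and *Hspa4l* and *Hspb11* lower by 1 in every NPM1 KD library. The test was limma's moderated test, in which the variance within groups follows a trend with intensity and is not let below that of rounding (0.0833). With adjustment over 5752 tested genes, 0 of the 45 genes passed an adjusted p below 0.05 in either direction, against 0.0695% of all genes higher and 0.417% lower. Before adjustment, p was below 0.05 for 3 higher genes (*Hsph1*, *Cct3* and *Hspa13*) and 2 lower genes (*Hspa4l* and *Hspb11*), where the shares of all tested genes were 6.07% and 8.07%. The NPM1 KD libraries all lay above the CTR libraries for 2 of the 45 genes and all below for 2, where the background was 2.19% and 3.41%. These 4 genes had an adjusted p of 0.0791, of 1.01e-11 to 3.58e-11 without the lower limit on the variance, and of 0.0304 without the intensity trend, all from limma. Their rounded values did not vary within either group. Without the limit the SE therefore becomes very small (0.0012 for *Cct3*), and the p-values of that setting reflect the rounding. By group mean, 14 genes (31.1%) were higher in NPM1 KD, 7 (15.6%) lower and 24 (53.3%) equal. The shares of all tested genes were 24.6%, 27.4% and 48%. The median difference was 0 for the set and for all tested genes, with means of 0.06 and −0.02. In 21 of the 45 genes (46.7%) all 6 libraries had 1 value, against 40.2% of all tested genes.

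**Figure D1:**
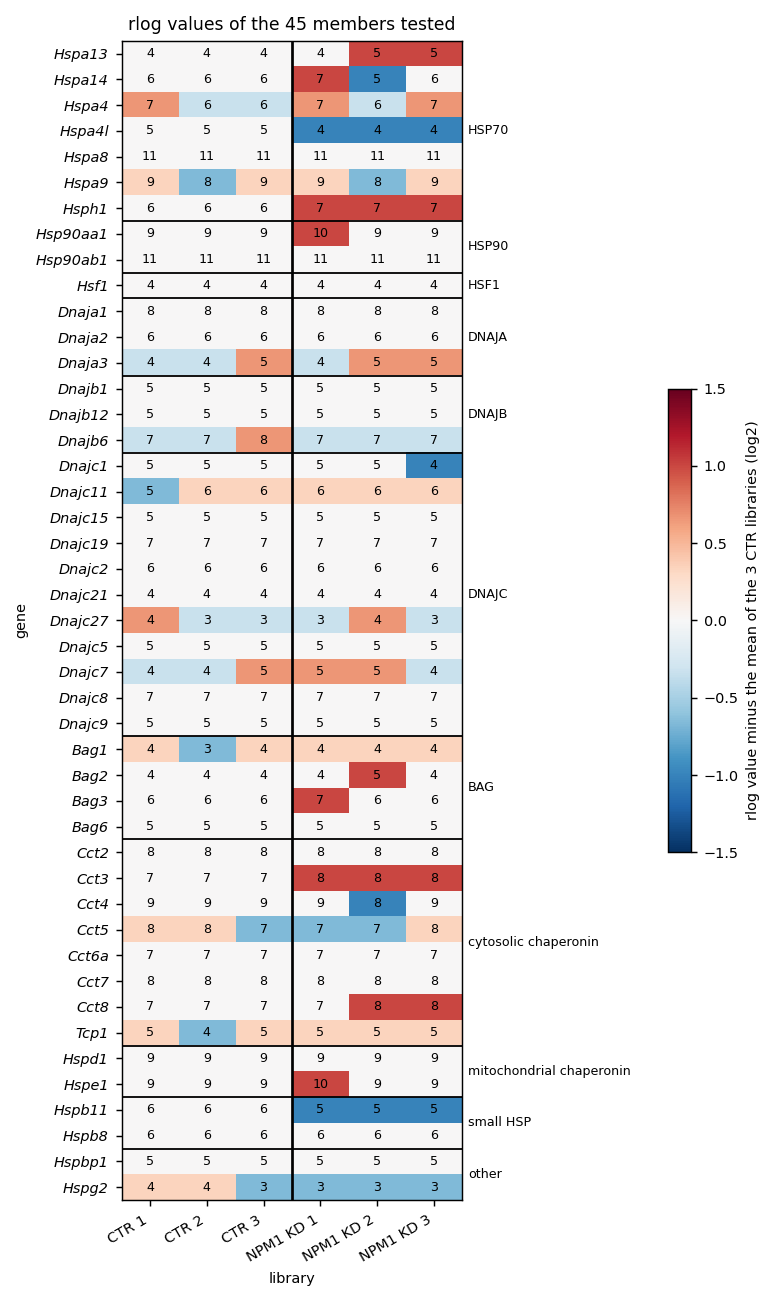
rlog values (log2 scale, numbers in the cells) of the 45 tested genes in 3 CTR and 3 NPM1 KD libraries, grouped by family, with colour giving the value minus the mean of the 3 CTR libraries. *Hsph1* and *Cct3* are 1 higher and *Hspa4l* and *Hspb11* 1 lower in all 3 NPM1 KD libraries, and 21 genes have 1 value in all 6.

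The HSP70 family had 13 genes, of which 7 were tested, with 3 higher, 1 lower and 3 equal by group mean and a median difference of 0. *Hspa8* (HSC70, ENSMUSG00000015656), the constitutive cytosolic HSP70, had a value of 11 in all 6 libraries. Its difference was 0, with a 95% interval from limma of −0.59 to 0.59, which is narrower than the change that rounding can hide. The mitochondrial HSP70 *Hspa9* (mortalin) was at 9, 8 and 9 in CTR and at 9, 8 and 9 in NPM1 KD. *Hspa14*, a ribosome-associated HSP70, was at 6 in each CTR library and at 7, 5 and 6 in NPM1 KD, the widest spread within a group among the 45 genes. Both were equal by group mean.

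*Hspa13* (STCH), an HSP70-like protein of microsomes, was at 4, 4 and 4 in CTR and at 4, 5 and 5 in NPM1 KD. Replicate 1 of NPM1 KD equalled the CTR libraries, so the groups touched. The difference was 0.67 (SE 0.33, n = 3 per group, adjusted p = 0.33 from limma).

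In the HSP110 branch of the family, whose proteins serve as nucleotide exchange factors, 1 gene was higher and 1 lower in every NPM1 KD library. *Hsph1* (HSP105, ENSMUSG00000029657) was at 6 in each CTR library and at 7 in each NPM1 KD library. The groups did not overlap, and the difference of 1 had a 95% interval of 0.32 to 1.68 (SE 0.35, adjusted p = 0.0791 from limma, n = 3 per group). *Hspa4l* (ENSMUSG00000025757) was at 5 in each CTR library and at 4 in each NPM1 KD library. Here too the groups did not overlap, with a difference of −1 and an interval of −1.65 to −0.35 (SE 0.33, adjusted p = 0.0791 from limma, n = 3 per group). The last gene of the branch, *Hspa4* (APG-2), was at 7, 6 and 6 in CTR and at 7, 6 and 7 in NPM1 KD, a difference of 0.33 (adjusted p = 0.713 from limma) with overlapping groups. *Hsph1* and *Hspa4l* overlap no other gene in the GENCODE M21 annotation.

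The stress-inducible HSP70 genes were almost without reads. *Hspa1a* had 0 reads and *Hspa1b* 1 read, in NPM1 KD replicate 2. A mean normalized count of up to 0.481 is allowed by 0 reads in 6 libraries (3 counts, counting error only). *Hspa1a* and *Hspa1b* are near-identical copies with the same 30-base stretch around their element, so the read could not be told apart between them with certainty. Whether reads that match both copies were counted is not given in the sources used here, and the limit of 0.481 does not cover their loss. The testis-enriched *Hspa2* had 11, 10 and 4 reads in CTR and 3 in each NPM1 KD library, with overlapping groups once divided by depth.

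The HSP90 genes were tested in full, 2 of 2. *Hsp90ab1*, the constitutive HSP90, had a value of 11 in all 6 libraries, with a 95% interval for the difference of −0.59 to 0.59. *Hsp90aa1*, the inducible HSP90, was at 9, 9 and 9 in CTR and at 10, 9 and 9 in NPM1 KD. Only NPM1 KD replicate 1 stood above the rest, and the difference of 0.33 had an interval of −0.32 to 0.98 (adjusted p = 0.713 from limma). *Hsf1* itself was at 4 in all 6 libraries, with an interval from limma of −0.68 to 0.68. For *Hsf1*, as for *Hsp90ab1*, rounding still allows any change below 1 in rlog value.

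All 8 subunits of the cytosolic chaperonin were tested, with 3 higher, 2 lower and 3 equal and a median of 0. *Cct3* (ENSMUSG00000001416) was at 7 in each CTR library and at 8 in each NPM1 KD library, without overlap. Its difference of 1 had an interval of 0.32 to 1.68 (SE 0.35, n = 3 per group, adjusted p = 0.0791 from limma). *Cct8* was at 7, 7 and 7 in CTR and at 7, 8 and 8 in NPM1 KD, a difference of 0.67 (SE 0.35, n = 3 per group, adjusted p = 0.33 from limma). NPM1 KD replicate 1 equalled the CTR libraries, and the gene overlaps *Usp16* on the other strand, from which its reads cannot be told apart without strand.

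For the other 6 subunits the groups overlapped. *Cct2* (8), *Cct6a* (7) and *Cct7* (8) had 1 value in all 6 libraries. None of them had an interval from limma wider than −0.68 to 0.68, but rounding allows any change below 1 in rlog value. *Tcp1* was at 5, 4 and 5 in CTR and at 5, 5 and 5 in NPM1 KD. *Cct4* was at 9, 9 and 9 in CTR and at 9, 8 and 9 in NPM1 KD, and *Cct5* at 8, 8 and 7 in CTR and at 7, 7 and 8 in NPM1 KD, both with a difference of −0.33 (adjusted p = 0.713 from limma). The subunits act in equal numbers in 1 ring complex, and *Cct3* was the 1 of 8 whose groups did not overlap.

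Of the mitochondrial chaperonin, *Hspd1* (HSP60) was at 9 in all 6 libraries and *Hspe1* (HSP10) at 9, 9 and 9 in CTR and at 10, 9 and 9 in NPM1 KD. Their reads may be shared in part where the 2 genes overlap at their common promoter. The difference for *Hspe1* was 0.33, and the libraries of both groups overlapped.

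**Figure D2:**
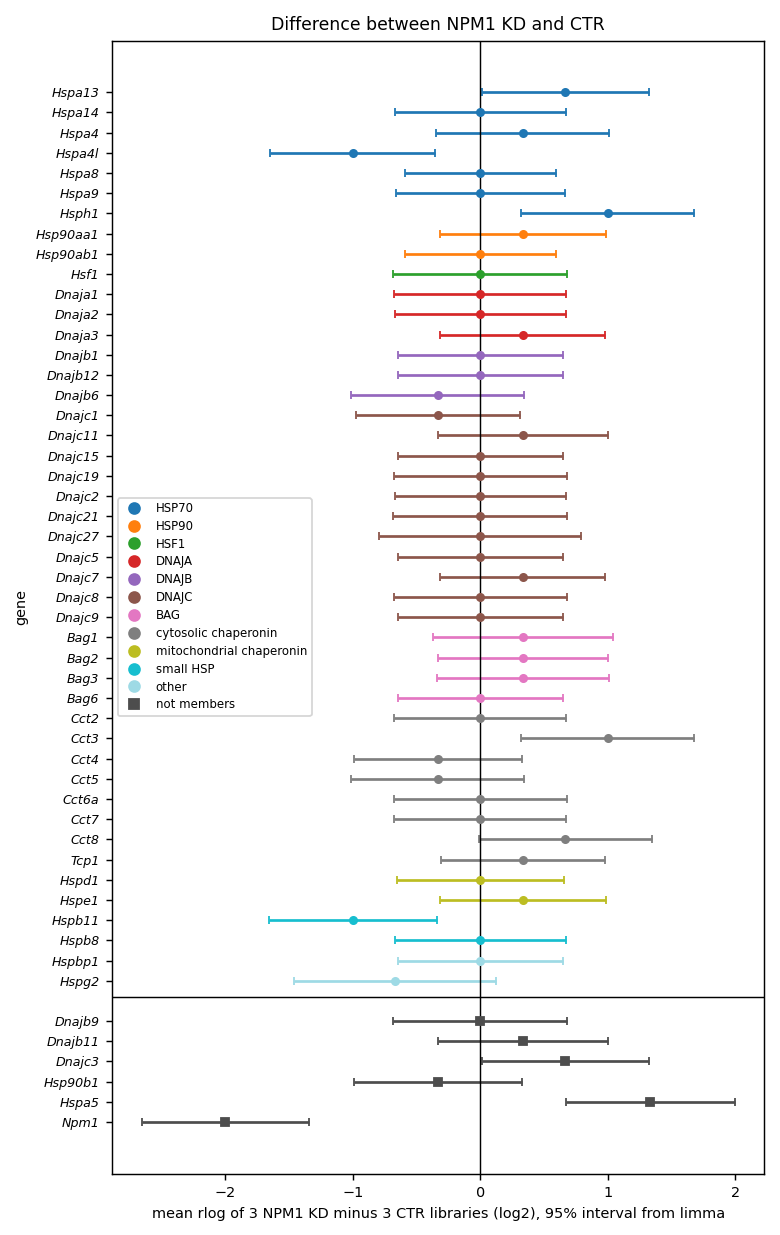
Difference in mean rlog value (log2) between 3 NPM1 KD and 3 CTR libraries, with the 95% interval from limma, for the 45 tested genes coloured by family, and for the 5 ER chaperones and *Npm1* (squares). Among the 45 genes the intervals of *Hsph1*, *Cct3*, *Hspa13*, *Hspa4l* and *Hspb11* leave out 0, but none of them passed after adjustment over all tested genes, unlike *Npm1* and, as long as no library was left out, *Hspa5*.

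Among J-proteins, 17 of 42 genes were tested, with 3 higher, 2 lower and 12 equal by group mean. Of the DNAJA genes, *Dnaja1* (8) and *Dnaja2* (6), the main cytosolic partners of HSC70, had 1 value in all libraries, and the mitochondrial *Dnaja3* was at 4, 4 and 5 in CTR and at 4, 5 and 5 in NPM1 KD. Of the DNAJB genes, *Dnajb1* (HSP40) was at 5 in all 6 libraries, as was *Dnajb12*, a J-protein of the ER membrane. *Dnajb6*, which suppresses aggregation of polyglutamine proteins, was at 7, 7 and 8 in CTR and at 7, 7 and 7 in NPM1 KD.

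The DNAJC genes carry the J-domain in many settings, and 7 of 11 tested had 1 value in all libraries. These included the ribosome-associated *Dnajc2* (6), the synaptic vesicle protein *Dnajc5* (5), the splicing-associated *Dnajc8* (7) and the histone-binding *Dnajc9* (5). *Dnajc7*, which binds both HSP70 and HSP90, was at 4, 4 and 5 in CTR and at 5, 5 and 4 in NPM1 KD. The remaining 3 differed by at most 0.33 in size, and no tested J-protein had groups without overlap.

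The BAG genes were 4 of 6 tested, with 3 higher, 0 lower and 1 equal by group mean and a median of 0.33. Each of the 3 rested on 1 library. *Bag1* was at 4, 3 and 4 in CTR and 4 in each NPM1 KD library, *Bag2* at 4 in each CTR library and at 4, 5 and 4 in NPM1 KD, and *Bag3*, the stress-inducible member that guides selective autophagy, at 6 in each CTR library and at 7, 6 and 6 in NPM1 KD. All 3 had overlapping groups and an adjusted p of 0.713 from limma. *Bag6*, which captures hydrophobic and mislocalized proteins, was at 5 in all libraries.

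Small heat shock proteins form oligomers that hold unfolding proteins, and 2 of 8 genes were tested. *Hspb8*, the partner of BAG3, was at 6 in all 6 libraries. *Hspb11* (ENSMUSG00000063172) was at 6 in each CTR library and at 5 in each NPM1 KD library, without overlap. The difference of −1 had an interval of −1.66 to −0.34 (SE 0.34, n = 3 per group, adjusted p = 0.0791 from limma), and the gene model *Gm12850* overlaps it on the same strand. *Hspb1* (HSP27), the classical inducible small heat shock protein, had 1 read in CTR replicate 2 and none elsewhere.

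Of the remaining genes, the HSP70 exchange factor *Hspbp1* was at 5 in all libraries. *Hspg2* was at 4, 4 and 3 in CTR and at 3 in each NPM1 KD library, a difference of −0.67 (SE 0.40, n = 3 per group, adjusted p = 0.47 from limma) with CTR replicate 3 at the NPM1 KD value. Its rlog mean passed the filter only through the 2 CTR libraries at 4, so its test and its place among the 7 lower genes follow in part from the filter.

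**Figure D3:**
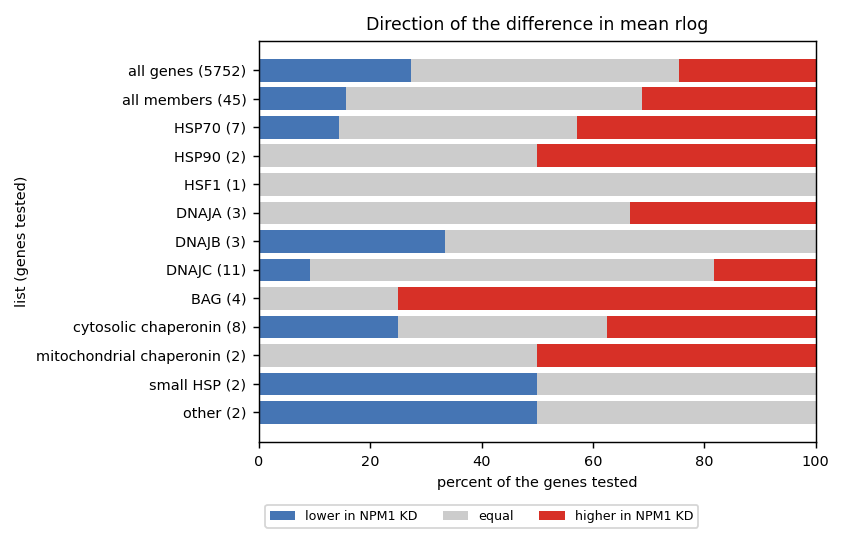
Percent of tested genes whose mean rlog value was lower, equal or higher in NPM1 KD than in CTR, for all tested genes, all 45 genes of the set and each family (number tested in brackets). Equal means make up 48% of all tested genes and 53.3% of the set, and families of 1 to 4 genes take large steps per gene.

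Genes with and without a heat shock element were set side by side. Of 9 tested genes whose window held the inverted pair, 3 were higher, 1 lower and 5 equal by group mean. Of 26 tested genes with a window and no pair, 8 were higher, 5 lower and 13 equal, and the median was 0 in both. Of the 4 genes without overlap between the groups, *Hsph1* has the longer run shown above, and no pair was found in the windows of *Cct3*, *Hspa4l* and *Hspb11*. Of the 2 genes that share the run of 4 units, *Hspd1* had 1 value in all libraries and *Hspe1* was higher in 1.

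Genes below the filter were read from the mean normalized count, which for few reads fixes how many reads each library had. Reads were recovered for 30 of the 31 genes, all but *Dnajc24*, and 22 of them had 10 reads or more. After division by size factor, the 3 NPM1 KD libraries all lay above the 3 CTR libraries for 2 of the 22 (9.09%, background 6.58% of 4608 genes) and all below for 2 (9.09%, background 12.3%).

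*Dnajc25*, a membrane J-protein, had 2, 0 and 1 reads in CTR and 5, 3 and 5 in NPM1 KD. The ratio of reads per depth, NPM1 KD over CTR, was 6.15 (95% interval 1.69 to 33.7, conditional exact binomial, counting error only), and the gene model *Gm20503* overlaps it on the same strand. *Dnajc12*, a co-chaperone of aromatic amino acid hydroxylases, had 2, 5 and 5 reads in CTR and 7, 6 and 7 in NPM1 KD, a ratio of 2.37 (1.10 to 5.31). Every NPM1 KD library was above every CTR library for both.

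*Dnajb5* had 11, 15 and 9 reads in CTR and 2, 4 and 6 in NPM1 KD, a ratio of 0.487 (0.230 to 0.960). *Dnajc10* (ERdj5), a disulfide reductase of the ER, had 10 reads in each CTR library and 3, 4 and 7 in NPM1 KD, a ratio of 0.662 (0.325 to 1.29). The groups did not overlap after division by depth, although the interval for *Dnajc10* includes 1.

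Of the 22 genes, 9 (40.9%) had a ratio above 1 and 13 (59.1%) below, where the shares of the 4608 genes were 43.5% and 56.5%. The whole interval lay above 1 for 4 of the 22 and below 1 for 1 (*Dnajb5*), against 268 and 501 of the 4608 genes. Of the 18 with overlapping groups, *Dnajb14* (10, 2 and 2 reads in CTR, 7, 5 and 10 in NPM1 KD, ratio 2.23, 1.09 to 4.71) and *Dnajc13* (7, 3 and 8 in CTR, 5, 13 and 7 in NPM1 KD, ratio 1.97, 1.03 to 3.84) had intervals above 1, and none had an interval below 1. The lowest ratios were those of *Dnajc14* (2, 6 and 1 reads in CTR, 0, 0 and 1 in NPM1 KD), *Hspa12a* (12, 13 and 4, against 1, 3 and 6), *Hspa2* (11, 10 and 4, against 3, 3 and 3), *Hspb2* (5, 11 and 17, against 4, 6 and 2) and *Dnajb4* (6, 12 and 2, against 2, 2 and 4), at 0.158, 0.489, 0.511, 0.516 and 0.568. These intervals cover counting error, while the spread between libraries is wider: *Dnajb14* in CTR ranged from 2 to 10 reads. *Bag4* (10, 7 and 6 reads in CTR, 11, 3 and 11 in NPM1 KD) and *Bag5* (11, 7 and 12 in CTR, 8, 7 and 9 in NPM1 KD) overlapped, with ratios of 1.54 and 1.14.

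**Figure D4:**
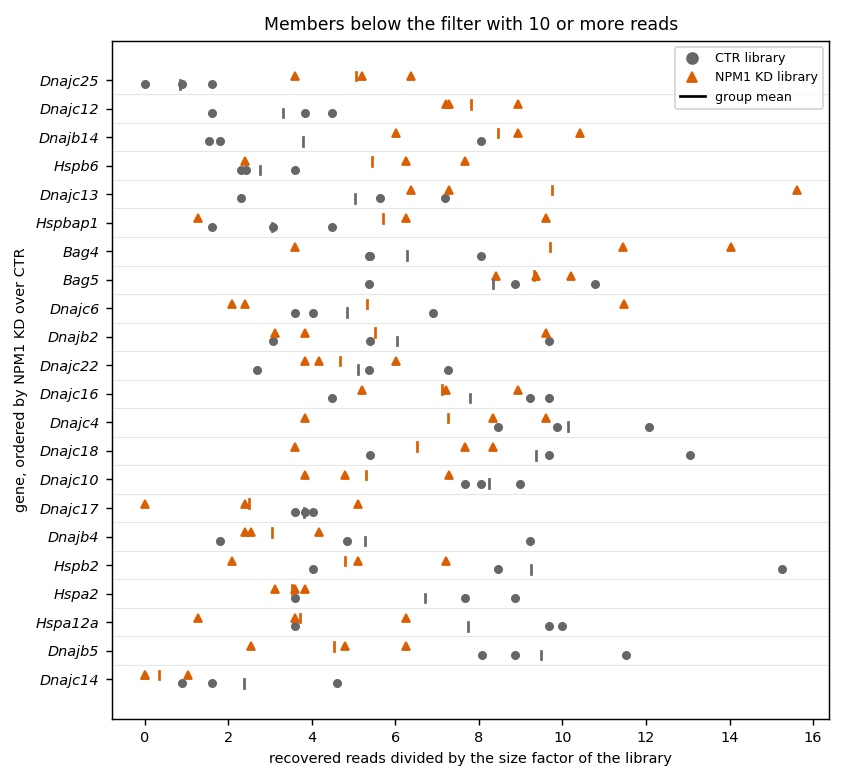
Recovered reads divided by the size factor of the library for the 22 genes below the filter with 10 or more reads, per CTR library (grey circles) and NPM1 KD library (orange triangles), with bars for group means and genes ordered by the ratio of NPM1 KD over CTR. The groups are apart for *Dnajc25* and *Dnajc12* (higher) and for *Dnajc10* and *Dnajb5* (lower), and overlap for the other 18.

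Partners outside the set gave 0 calls with limma as well. Of 17 HSP90 co-chaperones, 14 were tested, with 5 higher, 2 lower and 7 equal by group mean and a median of 0. The adaptor *Stip1* (HOP, 7), the immunophilin *Fkbp4* (7) and the ATPase activator *Ahsa1* (8) had 1 value in all libraries, and the unadjusted p was below 0.05 for 2 higher genes (*Chordc1* and *Unc45a*) and 1 lower gene (*Fkbp5*), against 6.07% and 8.07% of all tested genes. *Chordc1*, an HSP90 cofactor, was at 5, 5 and 6 in CTR and at 6 in each NPM1 KD library. *Unc45a*, the myosin chaperone, was at 5, 4 and 4 in CTR and at 5 in each NPM1 KD library, and *Fkbp5*, a glucocorticoid-induced immunophilin, at 4, 5 and 5 in CTR and at 4 in each NPM1 KD library. All 3 had overlapping groups and an adjusted p of 0.33 from limma.

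Of 9 genes for prefoldin, which passes actin and tubulin to TRiC, and for other chaperonin partners, 8 were tested. All 8 had equal group means, and none had an unadjusted p below 0.05. Of 8 mitochondrial chaperone partners, 7 were tested (2 higher, 3 lower, 2 equal), and the unadjusted p was below 0.05 for the lower *Clpb* and *Hscb*, 2 of 7 against 8.07% of all tested genes. Among 11 regulators and other targets of the heat shock response, 7 were tested and 6 were equal, including *Hsf2* (4), *Ubb* (10) and *Hmox1* (5). The seventh was *Sqstm1*, the autophagy receptor p62, at 7 in each CTR library and at 8 in each NPM1 KD library (adjusted p = 0.0791 from limma).

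The 5 ER chaperones that the choice by symbol leaves out were tested in full. *Hspa5* (BiP, ENSMUSG00000026864), the HSP70 of the ER and a target of the unfolded protein response, was at 8 in each CTR library and at 10, 9 and 9 in NPM1 KD. It rose by 1.33 (SE 0.34, n = 3 per group, adjusted p = 0.026 from limma), but the call was lost on leaving out any 1 of the 6 libraries (adjusted p from limma between 0.0704 and 0.248), without the lower limit on the variance (0.208) and with the replicate number as a block (0.167). *Dnajc3* was at 4, 4 and 4 in CTR and at 5, 5 and 4 in NPM1 KD (adjusted p = 0.33 from limma), *Dnajb9* was at 4 in all libraries, and *Dnajb11* and *Hsp90b1* differed by 0.33 and −0.33. Whether *Hspa5* changed more than its cytosolic counterpart *Hspa8* was not tested.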

How the data were processed

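RNA of 3 CTR and 3 NPM1 KD libraries of N2a cells was sequenced as PCR-amplified long cDNA reads. The authors deposited 1 rlog value per library for each gene, handled as a score on the log2 scale, and the mean normalized count over all libraries, also handled as a score. The submitters' processing notes name minimap2, featureCounts, DESeq2 and GRCm39. Settings, strand and annotation are not given in the sources used here. The deposited fold changes and p-values were not used. Both tables use decimal commas, and rlog values of 1 or more in size are whole numbers.

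Of 26913 rows, 257 repeat an Ensembl ID under another symbol and were left out. The 5752 genes whose rlog mean reached log2(10) entered limma (version 3.58.1, R 4.3.3), using lmFit and a two-sided eBayes test with a trend in intensity. Variances within groups were raised to at least 0.0833, the variance of rounding, and p-values were adjusted by Benjamini-Hochberg over all of them, with a threshold of 0.05. The p-values cover these libraries only, and rest on a variance pooled over genes along the intensity trend, not on each gene's own spread. The SE was 0.342 both for *Hspa14* (7, 5 and 6 in NPM1 KD) and for *Dnaja2*, with 1 value in all 6 libraries.

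Size factors were recovered from genes with a single read in 6 libraries and assigned to libraries by rlog values of genes read in 1 library. For 8544 of 8544 genes with a mean normalized count of up to 9.28, exactly 1 combination of whole reads gave the deposited value, and 14687 of 14692 pairs of libraries differing by 1 or more in rlog had the same order in reads. Reads of genes below the filter were added after the data had been seen.

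Named genes were the target, a fixed list of family members, every tested member without overlap between groups or past the threshold, the 10 largest differences with ties, and the 5 ER chaperones. Genes below the filter were named after their values were seen, and so were genes of the partner lists. The genes, lists and the variance limit were chosen with earlier results of these data known. Promoter windows are from RefSeq (GRCm38.p6), overlaps from GENCODE M21, and no coordinates of the deposited tables were used.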

Additional observations from a re-analysis of the deposited data

How the results depend on the processing

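Rounding hides differences below 1 in a library, and no unrounded values were analysed here. The 4 genes of the set without overlap (*Hsph1*, *Cct3*, *Hspa4l* and *Hspb11*) were the only ones called in any setting tried with limma: 2 higher and 2 lower without the limit on the variance, and likewise 2 and 2 without the intensity trend. Over all genes, 123 were called higher and 178 lower without the limit, and 132 and 218 without the trend. The adjusted p of these 4 genes from limma ranged from 1.01e-11 to 0.248 over all alternatives. The lowest values came without the limit on the variance, where rounding leaves these genes no spread within either group. Leaving out 1 library at a time gave 0 to 2 genes higher and 5 to 9 lower over all genes, with 0 of the set. With a replicate block the counts were 1 and 7, with 0 of the set. Whether the replicate numbers pair the samples is not known. Deviations of same-numbered libraries correlated at 0.0089, 0.0013 and 0.0298, but a pairing could go unseen in values rounded to whole numbers. Members at an unadjusted p below 0.05 numbered 9 of 68 with no filter on low values, where 9.53% of 11588 genes passed, against 5 of 45 and 14.1% of the genes tested with the filter. Centring or quantile normalization turned the direction of no family median. Without 1 library at a time, the ratio ranged from 3.96 to 12.2 for *Dnajc25* (12.2 without CTR replicate 1), from 1.88 to 2.82 for *Dnajc12*, from 0.388 to 0.583 for *Dnajb5* and from 0.528 to 0.748 for *Dnajc10*. The *Hspa5* call was lost without the limit on the variance (adjusted p = 0.208 from limma), with the block (0.167) and without any 1 library. *Hspa9*, at 0, ranged from −0.33 to 0.33 without 1 library, and differences of 0.33 in size that rest on 1 library, such as those of *Hsp90aa1*, *Hspe1* and *Bag1* to *Bag3*, became 0 without it.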
